A study of Homo sapiens with 24 samples.

Results

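Genes of heme and iron handling were followed through 24 RNA-seq libraries of 2 human glioma cell lines. The 10 symbols, taken by name from 34229 gene symbols in all, were HMOX1, HMOX2, BLVRA, BLVRB, FTL, FTH1, TFRC, SLC40A1, FECH and IREB2. All 10 had values in the 4 LN18 groups and in 1321N1 cells given the combined treatment, and 9 had values in the other 3 groups of 1321N1, where SLC40A1 was not analysed. 1321N1 is a line from a grade II glioma and LN18 a line from a grade IV glioma, each a single established line. Cells received the ethanol vehicle (control), epigallocatechin gallate (EGCG, the main catechin of green tea), hydroxychavicol (HC, a phenol of betel leaf) or both (EGCG+HC) for 24 h. EGCG was given at 50 µg/ml in both lines, whereas HC was given at 20 µg/ml in 1321N1 and at 10 µg/ml in LN18. Each of the 8 groups held 3 libraries, which the labels describe as independent tests, so the p-values below measure the spread between these libraries.

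Heme oxygenases open the heme ring and release biliverdin, carbon monoxide and iron. Biliverdin reductases turn biliverdin into bilirubin, ferritin cages store the released iron, ferroportin carries iron out of the cell and the transferrin receptor brings it in. Heme oxygenase 1 is the inducible enzyme, held down by BACH1 and raised by NRF2 with small MAF partners, and in brain and glioma cells it is known as a marker of oxidative stress. Iron regulatory proteins read the iron level of the cell and bind short hairpins, the iron-responsive elements, in the untranslated ends of several of these mRNAs.

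The values are RPKM (read counts scaled to the length of the gene and to the size of the library), and the differences are on the scale log2(RPKM + 1), which understates the change of weakly expressed genes. Genes were called higher or lower at a limma adjusted p of at most 0.05, corrected over all genes tested, together with a fold change of at least 1.5. Counted reads could be estimated in 22 of the 24 libraries, at 13.6 to 32.1 M with a median of 19.5 M. By that estimate each member other than SLC40A1 rested on 147 or more reads in every such library, for a counting error of at most 8.26%, and SLC40A1 rested on as few as 11.5 reads. In the 1321N1 EGCG group, replicates 2 and 3 held 263 genes at 0 that stood above 1 RPKM in replicate 1, and 0 of the members were among them. Of 11 glial markers 5 reached 1 RPKM in some library, with VIM up to 1038 RPKM, while the mean of GFAP stayed at or below 0.26 RPKM in every group. Of 8 erythroid and blood markers 3 reached 1 RPKM, namely CD68, HBA1 and HBA2. Group means of CD68 ran from 18.3 RPKM in LN18 controls to 41.8 RPKM in LN18 with EGCG. In that EGCG group HBA1 and HBA2 averaged 7.41 and 1.49 RPKM. The erythroid enzyme ALAS2 stayed below 1 RPKM throughout. Of 3 neuron markers 2 reached 1 RPKM, SNAP25 at up to 3.98 RPKM and SYT1 at up to 1.53 RPKM. Of 3 epithelium markers 1 did, CDH1 at up to 1.08 RPKM. RNA was measured in bulk, so that a change in the number of cells expressing a gene and a change in RNA per cell cannot be told apart.

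The iron-responsive hairpin is shown for SLC40A1, FTL and TFRC because it is the feature through which the product of IREB2 acts on these mRNAs. Whether the other members, FTH1 among them, hold a match is not reported here. It was searched on the transcribed strand of the canonical transcripts of GENCODE v44lift37 as a C, 5 bases, the loop CAGTG with a final base other than G, and 5 bases able to pair with the 5 before the loop, G with T allowed. The capitals mark the 6-base loop, and the sequences run 5′ to 3′ on GRCh37.
FTL 5′ UTR, chr19:49468592-49468621, plus strand: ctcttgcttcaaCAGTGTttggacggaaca
SLC40A1 5′ UTR, chr2:190445386-190445415, minus strand: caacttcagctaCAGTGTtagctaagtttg
TFRC 3′ UTR, chr3:195777849-195777878, minus strand: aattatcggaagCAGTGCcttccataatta
TFRC 3′ UTR, chr3:195777445-195777474, minus strand: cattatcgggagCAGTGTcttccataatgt
TFRC 3′ UTR, chr3:195777380-195777409, minus strand: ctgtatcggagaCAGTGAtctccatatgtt
TFRC 3′ UTR, chr3:195777333-195777362, minus strand: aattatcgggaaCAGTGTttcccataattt
A match was present in 10 of 17396 5′ UTRs searched (0.0575%) and in 97 of 18954 3′ UTRs (0.512%). TFRC was 1 of 1 transcripts with 4 or more matches in its 3′ UTR. Hairpins in the 5′ UTR are known to let iron regulatory proteins block translation, and those in the 3′ UTR of TFRC to shield the mRNA from decay. A match is a description of the letters, and neither binding nor protein was measured in these libraries.

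HMOX1, which encodes heme oxygenase 1 (chr22:35776354-35790207, plus strand), showed the widest fold range of the members, and HC raised it more in 1321N1 than at the lower dose given to LN18. In 1321N1 its levels were 13.8, 12.4 and 12.9 RPKM in the controls, 18.7, 18.9 and 19.8 RPKM with EGCG, 1399, 1385 and 1401 RPKM with HC and 1778, 1782 and 1633 RPKM with EGCG+HC. The 4 groups of 1321N1 did not overlap, and the 2 groups given HC stood far above the others. In LN18 the levels were 9.54, 7.96 and 9.31 RPKM in the controls, 19.1, 19.0 and 19.8 RPKM with EGCG, 29.4, 30.03 and 26.6 RPKM with HC and 239, 230 and 230 RPKM with EGCG+HC. Again no groups of the line overlapped, but here the large step came only when both compounds were present. Ordered over both lines, LN18 control was lowest, followed by 1321N1 control, 1321N1 EGCG, LN18 EGCG, LN18 HC, LN18 EGCG+HC, 1321N1 HC and 1321N1 EGCG+HC. Only the 2 EGCG groups, neighbours in that order, overlapped.

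**Figure D1:**
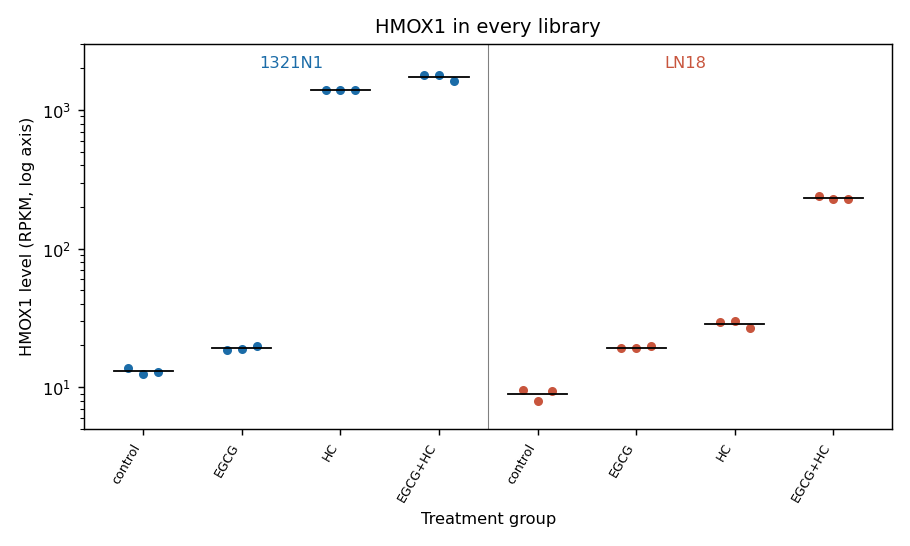
HMOX1 level in RPKM on a log axis for each library (points) with the group mean (line), 1321N1 in blue and LN18 in red. The 6 1321N1 libraries given HC lie between 1385 and 1782 RPKM, whereas in LN18 the 3 HC libraries lie between 26.6 and 30.03 RPKM and the 3 EGCG+HC libraries between 230 and 239 RPKM.

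The mean of HMOX1 in 1321N1 was 107-fold higher with HC than in the controls and 133-fold higher with EGCG+HC. On the log2 scale these rises were 6.64 (SE 0.04, limma adjusted p = 1.24e-09) and 6.95 (SE 0.05, adjusted p = 5.32e-09). Among all genes listed, HMOX1 moved from places 3739 to 4119 in the control libraries to places 15 to 17 with HC and 8 or 9 with EGCG+HC. EGCG alone gave a difference of 0.52 (SE 0.05, adjusted p = 0.00102), a ratio of means of 1.47, which lay under the fold limit. In LN18 all 3 treatments raised HMOX1, by 1.03 with EGCG (SE 0.06, adjusted p = 1.23e-05), 1.58 with HC (SE 0.08, adjusted p = 8.48e-06) and 4.56 with EGCG+HC (SE 0.06, adjusted p = 1.74e-08). As ratios of means these LN18 rises were 2.16, 3.21 and 26.0.

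The combination was next set against each compound alone. In LN18 the level with EGCG+HC exceeded that with EGCG by 3.52 (SE 0.02, adjusted p = 4.81e-09) and that with HC by 2.98 (SE 0.05, adjusted p = 4.50e-08). It also exceeded the sum of the 2 single changes by 1.94 on the log2 scale (SE 0.08, adjusted p = 5.06e-09). In 1321N1 EGCG+HC stood 6.43 above EGCG (SE 0.05, adjusted p = 1.59e-08) but only 0.31 above HC (SE 0.04, adjusted p = 0.000514), under the fold limit, which it passed under quantile normalization (0.59). There the difference from the sum was -0.21 (SE 0.06, adjusted p = 0.0134), not called, and it turned to 0.31 under quantile normalization. Both responses with HC were smaller in LN18, with a difference (LN18 minus 1321N1) of -5.06 for HC (SE 0.09, adjusted p = 1.50e-11) and -2.39 for EGCG+HC (SE 0.09, adjusted p = 2.15e-09), while the EGCG responses differed by 0.51 (SE 0.08, adjusted p = 0.000466), under the fold limit. LN18 received the lower HC dose, and the lines were grown with different amounts of serum. Line, dose and serum thus cannot be told apart in these last comparisons with HC, nor line and serum in that with EGCG.

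HMOX2, the constitutive heme oxygenase (chr16:4524691-4560348, plus strand), varied over a much narrower range than the inducible enzyme. Its 1321N1 libraries ranged from 7.70 to 11.98 RPKM and those of LN18 from 5.79 to 9.49 RPKM. In both lines the group means were lowest with EGCG+HC, at 7.76 ± 0.0965 RPKM in 1321N1 and 5.87 ± 0.0907 RPKM in LN18 (SD, n = 3), against 10.7 ± 0.207 and 9.24 ± 0.0940 RPKM in the controls. The EGCG+HC groups of each line did not overlap with the other groups of that line. On the log2(RPKM + 1) scale no change against control passed the fold limit. The values with EGCG+HC were -0.42 in 1321N1 (SE 0.04, limma adjusted p = 2.49e-05) and -0.58 in LN18 (SE 0.03, adjusted p = 2.88e-06). The means were 1.38-fold and 1.57-fold lower than in the controls. The LN18 change was called with a pseudocount of 0.1 (-0.65), after rescaling over non-mitochondrial genes (-0.67) and without LN18 EGCG+HC replicate 1 (-0.59). LN18 EGCG+HC was lower than LN18 EGCG by a called but marginal -0.59 (SE 0.03, adjusted p = 2.23e-06), a call lost under quantile normalization (-0.56) and without LN18 EGCG+HC replicate 2, LN18 EGCG replicate 2 or LN18 EGCG replicate 3 (each -0.58). The ratio of HMOX1 to HMOX2 mRNA went from 1.22 ± 0.0468 in 1321N1 controls to 146 ± 5.93 with HC and 223 ± 9.63 with EGCG+HC. In LN18 the ratio went from 0.966 ± 0.0832 to 3.71 ± 0.261 with HC and 39.6 ± 0.393 with EGCG+HC.

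The 2 biliverdin reductases moved differently. BLVRB encodes biliverdin reductase B, also a flavin reductase (chr19:40953672-40971671, minus strand), and rose with HC in both lines. In 1321N1 it measured 13.1, 11.9 and 13.0 RPKM in the controls, 14.6, 16.7 and 16.9 RPKM with EGCG, 40.7, 37.7 and 36.8 RPKM with HC and 21.3, 21.7 and 20.7 RPKM with EGCG+HC. LN18 libraries held 51.9, 42.1 and 45.6 RPKM in the controls, 67.1, 70.4 and 69.9 RPKM with EGCG, 92.4, 97.5 and 88.3 RPKM with HC and 50.2, 48.9 and 44.2 RPKM with EGCG+HC. HC alone gave the highest group in each line, and in LN18 the EGCG+HC libraries lay within the range of the controls.

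HC raised BLVRB by 1.53 in 1321N1 (SE 0.05, adjusted p = 4.00e-07) and by 0.98 in LN18 (SE 0.08, adjusted p = 6.25e-05). With EGCG+HC the rise was 0.70 in 1321N1 (SE 0.05, adjusted p = 6.15e-06), and the value in LN18 was 0.04 (SE 0.08, adjusted p = 0.664), which turned to -0.06 when values were rescaled over non-mitochondrial genes and to -0.03 without LN18 control replicate 2. EGCG+HC stood below HC, by -0.82 in 1321N1 (SE 0.04, adjusted p = 7.03e-06) and by -0.94 in LN18 (SE 0.06, adjusted p = 3.40e-06). Against the sum of the single changes BLVRB was lower by 1.14 in 1321N1 (difference -1.14, SE 0.08, adjusted p = 1.14e-06) and by 1.51 in LN18 (difference -1.51, SE 0.10, adjusted p = 1.10e-07). The change with EGCG in LN18 was 0.57 (SE 0.07, adjusted p = 0.000355), under the fold limit, and was called without LN18 EGCG replicate 1 (0.59) or LN18 control replicate 1 (0.65).

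BLVRA, the main biliverdin reductase of adult cells (chr7:43798279-43846941, plus strand), was lowest with EGCG+HC in both lines. The LN18 libraries measured 21.5, 20.5 and 21.4 RPKM in the controls, 18.1, 19.5 and 19.1 RPKM with EGCG, 18.2, 22.1 and 19.2 RPKM with HC and 8.72, 8.37 and 9.45 RPKM with EGCG+HC. In 1321N1 they measured 12.0, 13.9 and 13.7 RPKM in the controls, 14.8, 15.3 and 15.6 RPKM with EGCG, 12.4, 11.7 and 12.7 RPKM with HC and 8.85, 8.92 and 9.82 RPKM with EGCG+HC. The EGCG+HC groups lay below every other group of their line, and those of the 2 lines overlapped each other although the controls did not. In LN18 BLVRA fell with EGCG+HC by 1.17 on the log2 scale (difference -1.17, SE 0.05, adjusted p = 4.95e-07), a level 2.38-fold lower than in the controls, and neither compound alone changed it past the threshold (-0.15 with EGCG, -0.09 with HC). The difference from the sum of the single changes was -0.93 in LN18 (SE 0.09, adjusted p = 2.66e-06). That difference was -0.58 in 1321N1 (SE 0.08, adjusted p = 0.00014), just under the fold limit. In 1321N1 the value against control was -0.47 (SE 0.07, adjusted p = 0.00039), under the fold limit, and the fall against EGCG was called (-0.67, SE 0.05, adjusted p = 2.19e-05).

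Ferritin mRNAs were abundant in every group and rose with most treatments, and in 1321N1 given HC or EGCG+HC the FTH1 level lay below that of HMOX1. FTL encodes the light chain (chr19:49468566-49470136, plus strand), which helps the iron core to form. In 1321N1 it measured 630, 570 and 597 RPKM in the controls, 1003, 1092 and 1242 RPKM with EGCG, 4952, 4829 and 4903 RPKM with HC and 2315, 2379 and 2375 RPKM with EGCG+HC. In LN18 it measured 2973, 2698 and 2883 RPKM in the controls, 4569, 4684 and 4699 RPKM with EGCG, 3615, 4083 and 3590 RPKM with HC and 5407, 5257 and 5044 RPKM with EGCG+HC. No groups overlapped in either line, but the highest group was HC in 1321N1 and EGCG+HC in LN18. FTL held place 1 or 2 among all genes in every LN18 library and place 3 in every 1321N1 HC library.

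FTH1 encodes the heavy chain (chr11:61727190-61735106, minus strand), which carries the ferroxidase activity. The 1321N1 libraries held 212, 199.6 and 198 RPKM in the controls, 317, 339 and 357 RPKM with EGCG, 1235, 1163 and 1256 RPKM with HC and 924, 936 and 944 RPKM with EGCG+HC. The LN18 libraries held 555, 524 and 568 RPKM in the controls, 823, 833 and 852 RPKM with EGCG, 919, 999.9 and 915 RPKM with HC and 1566, 1565 and 1590 RPKM with EGCG+HC. FTH1 followed the same order of groups as FTL in 1321N1, while in LN18 HC and EGCG changed places. Symbols of 10 FTH1 pseudogenes together reached at most 0.56% of the FTH1 level and those of 2 FTL pseudogenes at most 0.0393% of the FTL level, and how reads of near-identical copies were shared is uncertain. The kit does not keep the strand, and 880 of the 1203 bases of the canonical FTH1 transcript overlap exons of BEST1 on the opposite strand, whose own level was at most 0.559 RPKM.

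**Figure D2:**
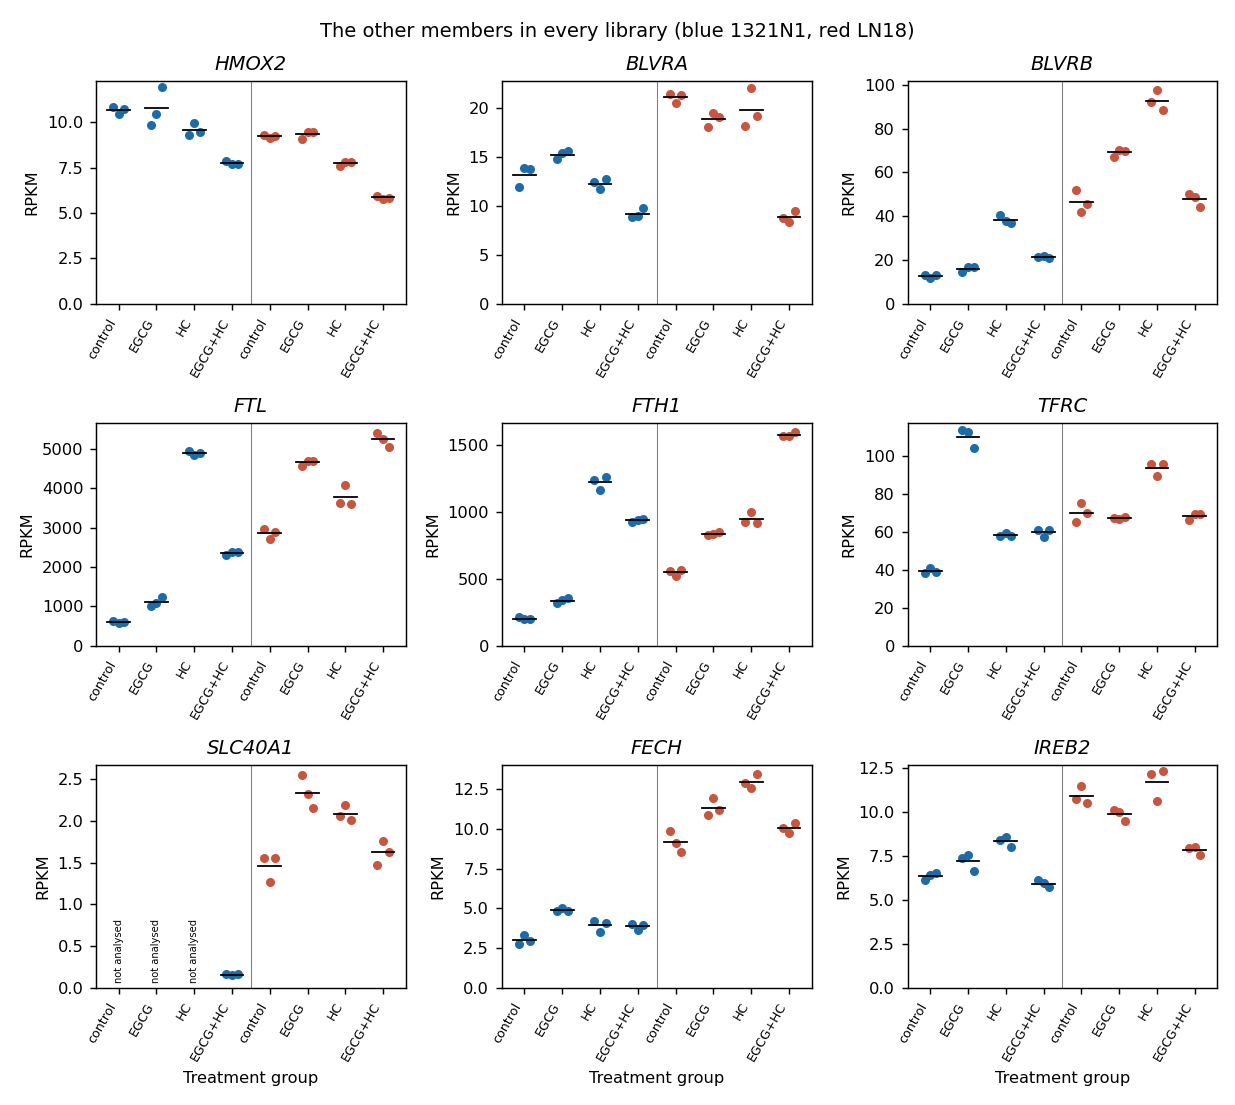
Level in RPKM (linear axes from 0) of the other 9 members in each library (points) with group means (lines), 1321N1 in blue and LN18 in red. FTL and FTH1 peak with HC in 1321N1 and with EGCG+HC in LN18, TFRC peaks with EGCG in 1321N1 at 104 to 114 RPKM, and BLVRA drops to between 8.37 and 9.82 RPKM with EGCG+HC in both lines. SLC40A1 was not analysed in 3 groups of 1321N1.

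With HC in 1321N1 FTL rose by 3.03 (SE 0.04, adjusted p = 1.22e-08), an 8.17-fold higher mean, and FTH1 by 2.58 (SE 0.04, adjusted p = 2.46e-08), a 5.99-fold higher mean. EGCG+HC raised FTL by 1.97 (SE 0.04, adjusted p = 6.83e-08) and FTH1 by 2.20 (SE 0.04, adjusted p = 2.96e-08) in the same line. EGCG alone raised FTL by 0.89 (SE 0.08, adjusted p = 0.000908) and FTH1 by 0.73 (SE 0.05, adjusted p = 0.00048). With EGCG+HC there was less FTL than with HC alone in 1321N1, by -1.05 (SE 0.03, adjusted p = 1.73e-06), a call that quantile normalization ended (-0.37), and with an FTH1 difference of -0.38 (SE 0.04, adjusted p = 0.000101) under the fold limit. Both ferritin chains were lower than the sum of the single changes, FTL by 1.94 (difference -1.94, SE 0.09, adjusted p = 8.17e-08, and -1.20 under quantile normalization) and FTH1 by 1.11 (difference -1.11, SE 0.07, adjusted p = 3.30e-07).

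In LN18, where FTL was already abundant in the controls, its rises were 0.71 with EGCG (SE 0.04, adjusted p = 1.13e-05) and 0.88 with EGCG+HC (SE 0.05, adjusted p = 1.69e-06), and the value with HC was 0.40 (SE 0.08, adjusted p = 0.00565). The 2 called rises were lost under quantile normalization (0.09 and 0.03), which by construction sets the values of equal rank equal, and FTL held the first or second rank in these libraries. FTH1 rose in LN18 with EGCG by 0.61 (SE 0.04, adjusted p = 1.07e-05), with HC by 0.78 (SE 0.06, adjusted p = 5.87e-05) and with EGCG+HC by 1.52 (SE 0.04, adjusted p = 5.73e-08). The call with EGCG ended under quantile normalization (0.44), rescaling over non-mitochondrial genes (0.56) and without LN18 control replicate 2 (0.57). Against HC alone, FTH1 with EGCG+HC was higher by 0.74 (SE 0.05, adjusted p = 8.23e-06), a call that quantile normalization ended (0.20). The FTH1 change with EGCG+HC differed from the sum of the single changes by 0.13 (SE 0.06, 95% interval -0.0022 to 0.26, adjusted p = 0.0708) and that of FTL by -0.23 (SE 0.08, 95% interval -0.41 to -0.04, adjusted p = 0.0294), neither past the threshold.

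The light chain mRNA exceeded the heavy chain mRNA per length in every library, by a ratio that depended on line and treatment. The FTL to FTH1 ratio of 1321N1 averaged 2.95 ± 0.0815 for control, 3.29 ± 0.168 for EGCG, 4.02 ± 0.125 for HC and 2.52 ± 0.0189 for EGCG+HC libraries (SD, n = 3). For the same groups of LN18 it averaged 5.20 ± 0.146, 5.57 ± 0.0556, 3.98 ± 0.0899 and 3.33 ± 0.143. HC thus stood at the highest ratio in 1321N1 and below the controls in LN18, while EGCG+HC gave the lowest ratio in both lines.

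TFRC encodes the transferrin receptor, the main route of iron into dividing cells (chr3:195739382-195809024, minus strand). In 1321N1 it measured 38.6, 41.0 and 39.0 RPKM in the controls, 113.7, 112.9 and 104.1 RPKM with EGCG, 58.1, 59.3 and 58.1 RPKM with HC and 61.0, 57.6 and 61.0 RPKM with EGCG+HC. The LN18 values were 65.4, 75.3 and 70.0 RPKM in the controls, 67.6, 66.7 and 67.9 RPKM with EGCG, 96.1, 89.5 and 95.8 RPKM with HC and 66.3, 69.7 and 69.4 RPKM with EGCG+HC. The EGCG group stood alone at the top in 1321N1, and in LN18 the HC group stood above 3 groups that overlapped one another. The TFRC difference with HC was 0.55 in 1321N1 (SE 0.04, adjusted p = 6.24e-06), called only under quantile normalization (0.61), and 0.41 in LN18 (SE 0.06, adjusted p = 0.000926). EGCG raised TFRC in 1321N1 by 1.46 (SE 0.05, adjusted p = 4.45e-05), a 2.79-fold higher mean, and the value in LN18 was -0.06 (SE 0.05, adjusted p = 0.339). The difference between these responses was itself called, at -1.51 (SE 0.07, adjusted p = 1.21e-07), at the same EGCG dose in both lines. The lines were grown with different amounts of serum, so that line and serum cannot be told apart here.

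The rise of TFRC with EGCG was not carried over to the combination. With EGCG+HC TFRC in 1321N1 was lower than with EGCG by 0.87 (difference -0.87, SE 0.05, adjusted p = 5.61e-06) and lower than the sum of the single changes by 1.42 (difference -1.42, SE 0.06, adjusted p = 3.46e-08). Its difference from control was 0.59 (SE 0.04, adjusted p = 7.07e-06), at the edge of the fold limit, and the call was lost under quantile normalization (0.56), rescaling over non-mitochondrial genes (0.52), and without 1321N1 EGCG+HC replicate 1 (0.57), EGCG+HC replicate 3 (0.57), control replicate 1 (0.57) or control replicate 3 (0.58). The ratio of FTL to TFRC mRNA, which sets iron storage beside iron uptake, averaged 15.2 ± 1.22 for control, 10.1 ± 1.61 for EGCG, 83.7 ± 1.97 for HC and 39.4 ± 1.73 for EGCG+HC libraries of 1321N1. For the same groups of LN18 it averaged 40.8 ± 4.84, 69.0 ± 1.31, 40.2 ± 4.66 and 76.5 ± 4.52. EGCG thus went with a lower ratio in 1321N1 and a higher one in LN18, with no overlap between EGCG and control libraries in either line.

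For the remaining members, SLC40A1, FECH and IREB2, no change against control was called where it was tested. SLC40A1 encodes ferroportin, the exporter of iron (chr2:190425316-190448484, minus strand), and stood between 1.27 and 2.55 RPKM in LN18 and between 0.152 and 0.166 RPKM in 1321N1 with EGCG+HC. Its LN18 means were 1.46 ± 0.163 RPKM in the controls, 2.34 ± 0.199 RPKM with EGCG, 2.08 ± 0.0926 RPKM with HC and 1.62 ± 0.145 RPKM with EGCG+HC. None of the differences from control passed the fold limit on the log2(RPKM + 1) scale. With EGCG the difference was 0.44 (SE 0.07, limma adjusted p = 0.00144), at a ratio of means of 1.60. That difference passed the threshold with a pseudocount of 0.1 (0.65). EGCG+HC lay below the sum of the single changes by 0.68 (difference -0.68, SE 0.10, adjusted p = 6.55e-05), a call that quantile normalization ended (-0.56).

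FECH encodes ferrochelatase, which places iron into the heme ring (chr18:55211609-55253964, minus strand). Its range was 2.74 to 5.04 RPKM in 1321N1 and 8.58 to 13.5 RPKM in LN18. Its largest change against control was 0.56 with EGCG in 1321N1 (SE 0.06, limma adjusted p = 0.00171), at a ratio of means of 1.63. On the log2(RPKM + 1) scale this lay under the fold limit, which was passed with a pseudocount of 0.1 (0.69) and without 1321N1 control replicate 2 (0.61). In LN18 the EGCG+HC change was lower than the sum of the single changes by 0.62 (difference -0.62, SE 0.07, adjusted p = 1.14e-05), a call lost under quantile normalization (-0.48) and without LN18 EGCG replicate 2 (-0.58) or LN18 control replicate 3 (-0.57). The difference of FECH from the sum in 1321N1 was -0.58 (SE 0.09, adjusted p = 0.000282), just under the fold limit. IREB2 encodes iron regulatory protein 2 (chr15:78729773-78793795, plus strand) and had a range of 5.73 to 8.57 RPKM in 1321N1 and of 7.58 to 12.3 RPKM in LN18. No treatment changed it past the threshold against control, with values from -0.43 (EGCG+HC in LN18, SE 0.04, adjusted p = 5.56e-05) to 0.34 (HC in 1321N1, SE 0.04, adjusted p = 0.000271). In 1321N1 its difference from the sum of the single changes was -0.59 (SE 0.07, adjusted p = 2.95e-05), at the edge of the limit. That call was lost under quantile normalization (-0.47), under rescaling over non-mitochondrial genes (-0.55), and, at -0.56 to -0.58, without any 1 of EGCG+HC replicate 3, EGCG replicate 1 or 2, HC replicate 1 or 2 and control replicate 1.

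**Figure D3:**
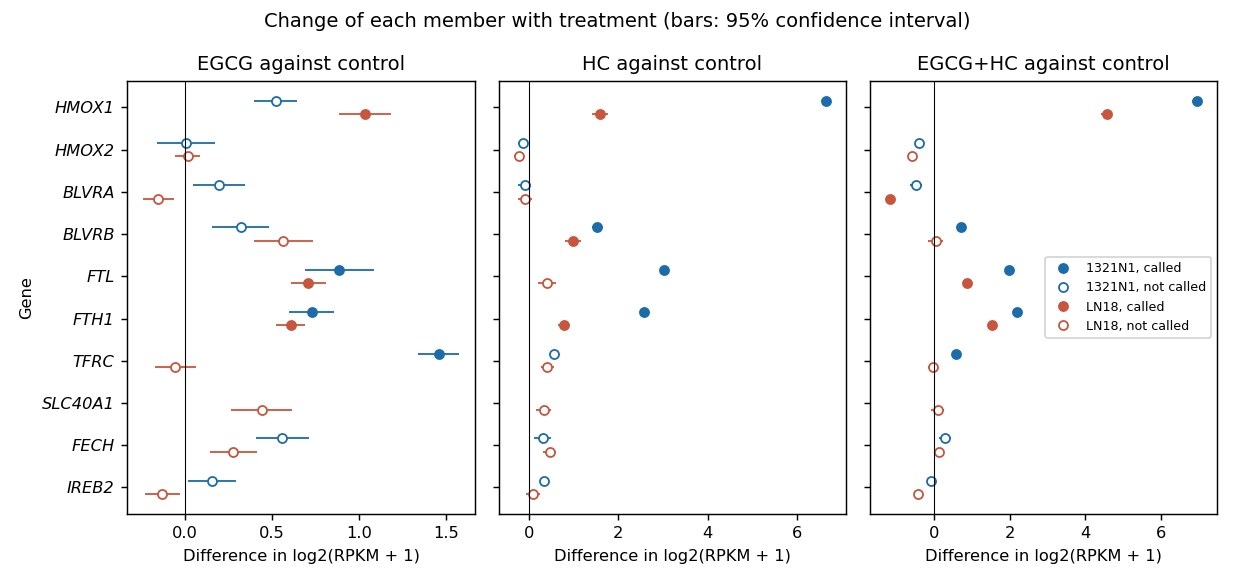
Difference in log2(RPKM + 1) from control for each member with EGCG, HC and EGCG+HC, 1321N1 in blue and LN18 in red, bars showing the 95% confidence interval and filled points the called changes. HMOX1 lies at 6.64 and 6.95 with HC and EGCG+HC in 1321N1 and at 1.58 and 4.56 in LN18. The 3 panels have different scales.

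Counted over the members, 3 of 9 were higher with EGCG in 1321N1, where 4.97% of all genes tested were called, 3.14% higher and 1.83% lower. Without replicates 2 and 3 of that EGCG group, which leaves 1 library that is assumed to vary like the controls, the calls of these 3 were kept. In LN18 3 of 10 were higher with EGCG, against 18.8% of all genes called, 9.11% higher and 9.70% lower. With HC 4 of 9 were higher in 1321N1, against 36.6% called (18.8% higher, 17.7% lower), and 3 of 10 in LN18, against 11.7% called (9.48% higher, 2.26% lower). With EGCG+HC 5 of 9 were higher in 1321N1, against 41.1% called (23.1% higher, 18.0% lower). In LN18 3 of 10 were higher and BLVRA was lower with EGCG+HC, against 46.3% called (24.1% higher, 22.2% lower). The total counts for HC and EGCG+HC in 1321N1 and for EGCG+HC in LN18 thus lay near the share of all genes called. The comparisons with a control share its 3 libraries.

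Relative to EGCG alone, 3 members were higher and 2 lower of 9 with EGCG+HC in 1321N1 (39.6% of all genes called, 19.1% higher and 20.5% lower). Of 10 members in LN18, 2 were higher and 2 lower in that comparison (37.0% called, 19.5% higher and 17.5% lower). Relative to HC alone, 2 of 9 were lower in 1321N1 (19.4% called, 12.2% higher and 7.23% lower), and 2 were higher and 2 lower of 10 in LN18 (45.4% called, 19.5% higher and 25.9% lower). Beyond the sum of the single changes, 5 of 9 members were lower in 1321N1 (23.1% called, 10.3% higher and 12.8% lower). In LN18 HMOX1 was higher and 4 of 10 members were lower (37.6% called, 14.5% higher and 23.1% lower). The median difference from the sum over the members tested was -0.59 in 1321N1 and -0.39 in LN18, beside -0.09 and -0.13 over all genes tested.

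**Figure D4:**
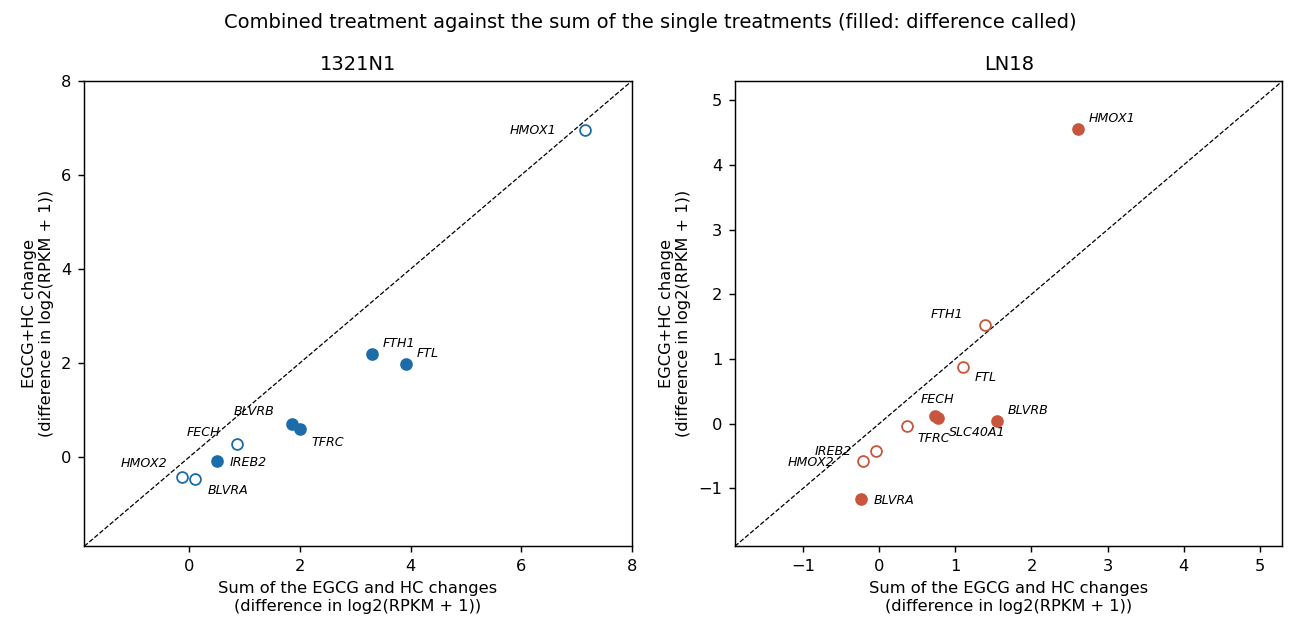
Change with EGCG+HC (vertical) against the sum of the EGCG and HC changes (horizontal), both as differences in log2(RPKM + 1) from control, for each member in 1321N1 and LN18. The dashed line marks equality and filled points are called differences, with HMOX1 lying 1.94 above the line in LN18 and FTL 1.94 below it in 1321N1.

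The untreated lines already differed in the mRNA levels of most members tested. In LN18 controls 7 of 9 members were higher than in 1321N1 controls, against 42.6% of all genes called (21.9% higher, 20.7% lower). FTL was higher by 2.25 (SE 0.05, adjusted p = 4.68e-08), BLVRB by 1.80 (SE 0.08, adjusted p = 7.39e-07), FTH1 by 1.43 (SE 0.05, adjusted p = 1.63e-07) and FECH by 1.35 (SE 0.07, adjusted p = 1.95e-06). TFRC was higher by 0.81 (SE 0.06), IREB2 by 0.69 (SE 0.05) and BLVRA by 0.64 (SE 0.06), the call for BLVRA being lost without 1321N1 control replicate 1 (0.58). The 2 heme oxygenases were not called, with -0.50 for HMOX1 (SE 0.07, adjusted p = 0.000464) and -0.19 for HMOX2 (SE 0.04, adjusted p = 0.00236). Each grade is represented by 1 line, and the lines were grown with different amounts of serum, so that line, grade and serum cannot be told apart.

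Tested directly, the response to EGCG differed between the lines for 1 of 9 members, TFRC, where 17.0% of all genes were called (5.59% higher in LN18, 11.4% lower). The response to HC differed for 3 of 9 members (32.2% of all genes, 19.6% higher and 12.6% lower), all smaller in LN18, namely HMOX1, FTL at -2.63 (SE 0.09, adjusted p = 1.24e-09) and FTH1 at -1.80 (SE 0.07, adjusted p = 4.55e-09), the last at -1.05 under quantile normalization. The response to EGCG+HC differed for 6 of 9 members (33.2% of all genes, 15.0% higher and 18.2% lower), all lower in LN18, with FTL at -1.10 (SE 0.07, adjusted p = 7.74e-08) and BLVRA at -0.69 (SE 0.09, adjusted p = 2.58e-05) next to HMOX1 in size. Under quantile normalization the FTL value was -2.02.

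Beyond the members, 70 further genes of heme and iron handling were followed in 7 lists, of which 57 or 58 were tested in each comparison. With EGCG in 1321N1 0 of 58 passed the limma threshold, where 4.97% of all genes were called, and 1 passed with a pseudocount of 0.1. By the adjusted p of at most 0.05 alone, whatever the fold, 26 of 58 passed, beside 5315 of 13255 over all genes tested. In LN18 7 rose and 10 fell of 57 with EGCG (18.8% of all genes called). With HC 14 rose and 7 fell of 58 in 1321N1, near the 36.6% of all genes called, and 11 rose of 57 in LN18 with no call for a fall, where 9.48% of all genes were higher and 2.26% lower. EGCG+HC raised 9 and lowered 10 of 57 in 1321N1 (41.1% of all genes called) and raised 12 and lowered 17 of 57 in LN18 (46.3% called). The medians over the tested genes, from -0.06 to 0.20, lay close to the medians of all genes, from -0.01 to 0.10.

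The list of HMOX1 regulators also holds POR, the electron donor of heme oxygenase. Of its 9 genes tested, 6 were higher with HC in 1321N1 (18.8% of all genes higher) and 6 with EGCG+HC (23.1% higher), with list medians of 1.24 and 1.40. POR was 1 of the 6 in both, at 1.45 and 0.83, and is named after its values were seen. In LN18 4 were higher with HC (9.48% of all genes higher) and 7 with EGCG+HC (24.1% higher), where HSF1, the heat shock factor, was lower (-0.85, named after its values were seen). MAFF, a small MAF partner of NRF2 and BACH1, rose by 3.01 with EGCG+HC in 1321N1 (SE 0.04) and 1.43 in LN18 (SE 0.07). MAFK rose by 2.25 and 0.94, MAFG by 2.07 and 1.78 and BACH1, the heme-sensing repressor of HMOX1, by 2.03 and 1.38 in the 2 lines. NFE2L2, the gene of NRF2, named after its values were seen, rose by 1.40 and 1.26. Of the 5 textbook NRF2 targets all 5 rose with HC and with EGCG+HC in 1321N1, and 3 of 5 in LN18. SRXN1, which repairs peroxiredoxins, rose with EGCG+HC by 2.36 in 1321N1 and 2.09 in LN18, and GCLM of glutathione synthesis by 2.28 and 2.23. TXNRD1 and NQO1 rose in 1321N1 by 1.64 and 1.32, while their values in LN18 were 0.13 and -0.54.

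**Figure D5:**
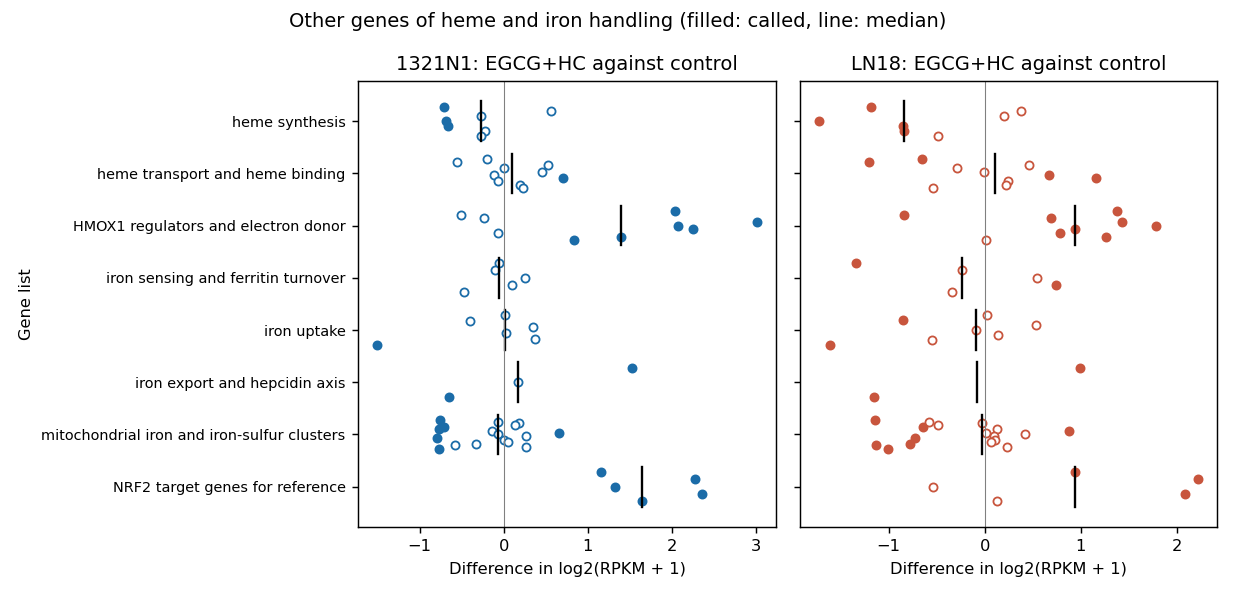
Difference in log2(RPKM + 1) with EGCG+HC against control for each tested gene of 8 lists, 1321N1 in blue and LN18 in red, filled points being called and black lines the list medians. The HMOX1 regulators with POR have medians of 1.40 and 0.94 and the heme synthesis genes medians of -0.27 and -0.84 in 1321N1 and LN18.

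Of 7 heme synthesis genes tested with EGCG+HC, 3 fell in 1321N1, where 18.0% of all genes were lower, and 4 fell in LN18, where 22.2% were lower. The others were not called in either direction, and the total of called genes lay near the share of all genes called (41.1% and 46.3%). ALAD, an early enzyme of the pathway, changed by -0.71 in 1321N1 and -1.18 in LN18, PPOX near the end of the pathway by -0.66 and -0.85, and UROD by -0.84 in LN18 with -0.22, not called, in 1321N1. ALAS1, the rate-limiting first enzyme, was not called with EGCG+HC in either line (0.56 and 0.38). Named after its values were seen, ALAS1 rose with HC alone by 1.41 in 1321N1 and 1.01 in LN18, from group means of 27.4 to 74.3 RPKM and of 42.4 to 86.5 RPKM.

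Transport and iron-sulfur genes were mixed. Of 10 heme transport and heme binding genes tested with EGCG+HC, 1 rose and 0 fell in 1321N1, and 2 rose and 2 fell in LN18. Over all genes 41.1% and 46.3% were called. SLC25A38, a mitochondrial glycine carrier needed for heme synthesis, rose with EGCG+HC by 0.70 in 1321N1 and 1.15 in LN18. ABCB6, a porphyrin transporter, fell by 1.20 in LN18 (difference -1.20) with -0.56, not called, in 1321N1. ABCB10 fell (-0.66) and PGRMC2, a heme chaperone, rose (0.67) in LN18 only by the threshold, with no test of the difference between lines. Of 17 mitochondrial iron and iron-sulfur genes tested, 1 rose and 5 fell in 1321N1 and 1 rose and 6 fell in LN18, near or under the 41.1% and 46.3% of all genes called. The mitochondrial iron importer SLC25A37 changed by -0.77 in 1321N1 and -1.003 in LN18. NFU1, which delivers iron-sulfur clusters, fell in LN18 (-1.13) with -0.58, not called, in 1321N1, and GLRX5, another carrier of clusters, rose in LN18 (0.88) with -0.14, not called, in 1321N1.

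Of the iron uptake genes tested with EGCG+HC, 1 of 6 fell in 1321N1 and 2 of 7 in LN18, with 0 higher. Of 5 iron sensing genes 0 were called in 1321N1, and 1 rose and 1 fell in LN18. Among iron export and hepcidin genes 1 rose and 1 fell, of 3 in 1321N1 and of 2 in LN18. Over all genes tested 41.1% and 46.3% were called. The ferrireductase STEAP3, which works beside the transferrin receptor in endosomes, fell in both lines, with differences of -1.504 in 1321N1 and -1.61 in LN18. SLC11A2, the endosomal iron carrier DMT1, fell in LN18 (-0.85) with -0.40, not called, in 1321N1. ACO1, the gene of iron regulatory protein 1, fell in LN18 (-1.34) with -0.06 in 1321N1, and the iron chaperone PCBP1 rose in LN18 (0.74) with 0.10 in 1321N1. HFE, a partner of the transferrin receptor, changed by -0.66 and -1.15. BMP6, known in liver for raising hepcidin, rose by 1.53 in 1321N1 and was not tested in LN18, while FAM132B, the gene of erythroferrone, rose by 0.99 in LN18 with 0.17, not called, in 1321N1. Globin mRNAs, summed over HBA1, HBA2 and HBB, stood at 1.07 to 1.53 RPKM in LN18 controls, 8.44 to 9.55 RPKM with EGCG, 1.99 to 2.35 RPKM with HC and 5.36 to 6.87 RPKM with EGCG+HC. The whole list of 8 blood markers, dominated by CD68, summed to 18.2 to 21.5 RPKM in LN18 controls, 48.8 to 52.2 RPKM with EGCG, 27.2 to 30.6 RPKM with HC and 34.1 to 35.4 RPKM with EGCG+HC, and 23.4 to 34.1 RPKM over the 1321N1 groups. The part of these markers in the changes above was not tested.

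The promoters of 8 members were scanned for the antioxidant response core TGACNNNGC, the site of NRF2 and BACH1 with small MAF proteins. Both strands of RefSeq windows (GRCh38.p14) were read, from 250 bases before to 50 bases after the gene start. Of 10 windows of 8 members, 1 held it, that of FECH, against 13.35% of all 35116 windows. HMOX1 and FTH1 had no such window, so their promoters were not scanned. The enhancers in which such sites are known to lie for several of these genes are outside these windows.

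The genes whose profile was most like that of HMOX1 over the 24 libraries, by Pearson correlation of log2(RPKM + 1) across 13824 genes, were MXD1 (r = 0.997), PELI1 (0.996), CXCL3 (0.987), GADD45A (0.987) and AKIRIN2 (0.984). By Spearman correlation, which uses ranks, the same genes had 0.923, 0.931, 0.856, 0.952 and 0.877 in that order. CXCL3 was weakly expressed, at 0.387 RPKM in 1321N1 controls, 0.188 RPKM in LN18 controls and 4.39 RPKM with HC in 1321N1. All these correlations describe points that share lines and treatments. MXD1, a partner of MAX, went from 3.43 RPKM in 1321N1 controls to 37.7 RPKM with HC and 38.2 RPKM with EGCG+HC, and from 2.05 RPKM in LN18 controls to 15.2 RPKM with EGCG+HC. GADD45A, a stress-induced growth arrest gene, went from 24.3 to 166 and 280 RPKM in the same 1321N1 groups, with 19.98 and 119 RPKM in LN18 control and EGCG+HC libraries. Among the members FTH1 came closest to HMOX1 (r = 0.641, place 1968) followed by FTL (0.404), and BLVRA lay farthest (-0.754).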

How the data were processed

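Poly(A) RNA of 24 libraries, 3 for each of 8 groups, was compared. Per the methods of the study and the labels, the authors trimmed low-quality ends from paired reads and used FastQC for quality control. They mapped the reads to hg19 (GRCh37) in CLC Genomics Workbench and deposited RPKM values, in 1 table for each group. Gene models and the treatment of multiply mapped reads are not stated in the sources used here. Groups come from the sample labels, and doses and vehicle from the methods of the study. No library repeated another (0 identical).

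Values were tested as log2(RPKM + 1), a pseudocount of 1, with limma 3.58.1 (trend, empirical Bayes; R 4.3.3). Genes averaging 1 RPKM or more over the libraries of a fit were kept. A pair of groups was fitted on 6 libraries, and the differences from the sum and between lines on 12. Adjusted p-values are Benjamini-Hochberg over all genes tested, and the thresholds (0.05 and a fold of 1.5) follow the methods of the study. The fit was tested on simulated data. Tables were made with Python 3.11.15, pandas 2.3.3 and numpy 2.4.6, and figures with matplotlib.

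Counted reads were estimated from the spacing of low RPKM values in single-exon genes, of which 85.2 to 93.2% lay within 0.1 of a whole read. In the other 2 libraries, 1321N1 EGCG replicates 2 and 3, under 100 such values were present and no estimate was made. Counting errors cover counting only.

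Alternatives were pseudocount 0.1, no filter, a minimum of 10 RPKM, quantile normalization, rescaling over non-mitochondrial genes, all 12 libraries of a line in 1 fit, a replicate block, leaving out each replicate, and leaving out 1321N1 EGCG replicates 2 and 3. The text names all members, up to 4 genes of each list with the largest called change with EGCG+HC in either line, and the 5 genes most like HMOX1. Some genes that this rule names are not reported here. The members, lists, hairpin search and tests were chosen with earlier results of these data known.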

Additional observations from a re-analysis of the deposited data

Results flagged for a closer look

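The responses of the 2 lines were compared directly for 9 members, and 10 differences (LN18 minus 1321N1, log2 scale, limma on 12 libraries) passed the threshold. With EGCG, at 1 dose in both lines, TFRC differed by -1.51 (adjusted p = 1.21e-07). With HC, HMOX1 differed by -5.06 (adjusted p = 1.50e-11), FTL by -2.63 (adjusted p = 1.24e-09) and FTH1 by -1.80 (adjusted p = 4.55e-09). With EGCG+HC, HMOX1 differed by -2.39 (adjusted p = 2.15e-09), FTL by -1.10 (adjusted p = 7.74e-08), BLVRA by -0.69 (adjusted p = 2.58e-05), FTH1 by -0.68 (adjusted p = 4.07e-07), BLVRB by -0.67 (adjusted p = 0.000114) and TFRC by -0.62 (adjusted p = 9.40e-06). The last is lost without LN18 control replicate 2 (-0.57). Under quantile normalization the FTH1 difference with HC was -1.05 and the FTL difference with EGCG+HC -2.02. All 3 comparisons use the same control libraries, and the lines were grown with different amounts of serum, so that line and serum cannot be told apart in any of them. LN18 also received the lower HC dose, so that line and dose cannot be told apart for HC and EGCG+HC.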

How the results depend on the processing

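Of the counts of called members, 3 moved by more than 1.5 times, all under quantile normalization: from 3 to 1 for EGCG in LN18, from 5 to 3 beyond the sum in LN18, and from 1 to 2 for the EGCG response between lines. Leaving out 1 replicate gave 2 to 4 calls for EGCG in LN18, 3 to 4 for EGCG in 1321N1, 4 to 5 for EGCG+HC in either line and 4 to 7 beyond the sum in 1321N1. Small values changed sign. HMOX2 with EGCG in 1321N1 (0.0075) went to -0.0865 under quantile normalization, -0.0184 under rescaling over non-mitochondrial genes, -0.1020 without 1321N1 EGCG replicates 2 and 3 (1 library left, assumed to vary like the controls), and between -0.0645 (without EGCG replicate 3) and 0.0622 when 1 replicate was left out, with -0.0070 without control replicate 2. In LN18, HMOX2 with EGCG went to -0.0277 under that rescaling, and IREB2 with HC to -0.0021 and SLC40A1 with EGCG+HC to -0.1055 under quantile normalization. HMOX1 beyond the sum in 1321N1 went to 0.3096 under quantile normalization. With EGCG+HC in LN18, BLVRB went to -0.0642 under the rescaling, and without LN18 control replicate 2 BLVRB went to -0.0285 and TFRC to 0.0169 (ranges over single replicates left out -0.0285 to 0.1190 and -0.0837 to 0.0169). The cause of these shifts was not tested. Member changes were tallied for treatments against control, for the calls in the other comparisons and for HMOX1 throughout. Of these, 724 kept direction and side of the threshold when 1 replicate was left out and 658 under the other settings. A call was lost in 18 and 13, gained in 4 and 6, and the sign changed in 4 and 8. Calls that members other than HMOX1 gained outside the comparisons of a treatment with control are not in this tally. Quantile normalization also moved the share of called genes that were lower from 36.9% to 53.3% for EGCG in 1321N1, from 19.2% to 37.5% for HC in LN18, where the median of all genes shifted by -0.13, and from 67.1% to 54.5% for the EGCG response between lines. Rescaling over non-mitochondrial genes shifted the median of all genes by -0.11 for EGCG+HC against HC in LN18, and quantile normalization by 0.10 beyond the sum in LN18. With a minimum of 10 RPKM, under which fewer genes are tested, the called genes of the heme and iron lists went from 21 to 11 (HC) and 19 to 9 (EGCG+HC) in 1321N1 and from 17 to 11 (EGCG), 11 to 6 (HC) and 29 to 17 (EGCG+HC) in LN18.

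The replicate numbers showed no pairing of the samples. For this check the group mean of each gene was subtracted, and the remaining deviations were correlated between groups of a line. The 36 correlations of same-numbered libraries ran from -0.118 to 0.124. Among the 3 replicates of the other group, a library was most like its own number in 9 of 36, where unpaired numbers would give about 1 in 3. With the replicate block the counts of called members were unchanged in every comparison fitted, for example 3 for EGCG and 4 for HC in 1321N1. No block was fitted for the controls of the 2 lines.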
